A study of Xenopus laevis with 6 samples.

Results

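The 2 RNA-seq libraries of replicate 3, 1 from neil2 MO and 1 from control MO embryos, were compared with the 4 libraries of replicates 1 and 2 in a series of 6 libraries from Xenopus laevis. Every library came from a pool of 6 whole embryos at stage 23, an early tailbud stage, which were fertilized in vitro and received 40 ng of a Morpholino (MO) into the animal hemisphere at the 1-cell stage. An MO is a synthetic antisense oligonucleotide. The neil2 MO targets the transcript of Neil2, a DNA glycosylase of base excision repair, and the control MO is the injection control. Replicate 3 thus holds 1 neil2 MO and 1 control MO library, and replicates 1 and 2 together hold 2 of each, so every embryo was injected and none was an untreated embryo. The oligonucleotides are shown because the group they define was held as a block in the comparison, and the capitals mark the stretch CAT, the reverse complement of a start codon:
neil2 MO: gtctgactgtgggaccttccggCAT
Control MO: cctcttacctcagttacaatttata

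The split was chosen by the scores of these same libraries in a principal component analysis. On the first principal component, which carried 40.0% of the variance over 23651 features, neil2 MO replicate 3 had a score of 51.9 and control MO replicate 3 one of 62.5. The other 4 libraries lay between -33.2 and -18.6. All differences between replicate 3 and replicates 1 and 2 are therefore given as a description, with no test, and only the response to the neil2 MO was tested. The labels do not state that libraries of equal number share a clutch or a day of collection, so these cannot be told apart from one another or from the replicate number.

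A frog clutch is laid by 1 mother, and its eggs carry her stores of RNA and her alleles into the embryo. X. laevis is allotetraploid, and most genes exist as homeologs, 1 on a longer (L) and 1 on a shorter (S) chromosome of each pair, so a pool can differ from another in an allele, in 1 copy of a gene or in both copies. At the tailbud stage the embryo has a beating epidermal ciliature, ion-pumping epidermal cells, segmented muscle and a yolky endoderm, and germ plasm RNAs from the egg persist in the primordial germ cells.

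Library depth ran from 11534725 counted reads in control MO replicate 3 to 24034094 in neil2 MO replicate 3, with the other 4 libraries between 15656709 and 20655392, so replicate 3 held both extremes. The targeted transcript neil2.L had raw counts of 3 to 15 in every library, too few to check the knockdown, which blocks translation. Of 43 marker symbols for 15 tissues 37 matched a feature, 29 were above 3 counts in all libraries, and every tissue had such a marker. The heart markers tnni3 and myl7, the globin hbg1, the pigment marker dct and the lens marker crybb1 were at or near 0 (medians of at most 8.77 normalized counts), while actc1, sox10, foxj1, agr2, col2a1 and pax8 were well detected. In bulk RNA from whole embryos, fewer cells of a type and less RNA per cell cannot be told apart.

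Replicate 3 differed from replicates 1 and 2 in a broad set of genes, more of them lower than higher. Of 24024 features tested, 825 (3.43%) were higher and 1406 (5.85%) were lower in replicate 3, 2231 (9.29%) in all. The thresholds, used throughout, were an adjusted p below 0.1 and a log2 fold change beyond 0.5 in either direction. Since the same libraries chose the split, these are thresholds of size against spread and nothing is read from the shares. Beyond a 2-fold difference there were 238 higher and 526 lower features. In all, 770 of the higher and 1240 of the lower features had both replicate 3 libraries outside the range of the other 4, against 15.2% above and 14.7% below among all features tested. Features past the thresholds differ between the sets by selection, so this separation is no support for them. A model with the replicate number in place of the set compared replicate 2 with replicate 1. It placed 396 (1.75%) higher and 417 (1.85%) lower of 22593 features past the same thresholds. Replicate 3 against replicate 1 alone gave 523 higher and 920 lower, and against replicate 2 alone 466 and 829.

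Both Morpholino groups contributed. In neil2 MO embryos alone 806 features (3.35%) were over 2-fold higher in replicate 3 than in the mean of replicates 1 and 2, and in control MO embryos 685 (2.85%) were. The 291 features in both counts made up 36.1% of those in neil2 MO and 42.5% of those in control MO embryos. In the same way 971 features (4.04%) were over 2-fold lower in neil2 MO and 1316 (5.48%) in control MO embryos, and the 481 shared ones were 49.5% and 36.6% of these. Only 9 and 10 features moved over 2-fold in opposite directions. The counts leaned on both replicate 3 libraries: without neil2 MO replicate 3 they fell to 77 higher and 260 lower, and without control MO replicate 3 to 98 and 295. Without neil2 MO replicate 1 they were 503 and 886, and without control MO replicate 2 there were 455 higher features.

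The features with the largest differences were low in one set of libraries and high in the other. The S homeolog of ina, which encodes the neuronal intermediate filament internexin, had normalized counts of 615 in neil2 MO and 641 in control MO of replicate 3, against 9.56 and 13.2 in neil2 MO and 42.4 and 17.9 in control MO of replicates 1 and 2. Both replicate 3 libraries were far above the other 4, and the log2 fold change was 5.10 ± 0.59 (SE, 6 libraries), or 34.2-fold. The SE, here and below, treats the 6 libraries as separate, and whether libraries of equal number belong together was not tested. Values of agap2.S, a GTPase-activating protein for Arf, were 320.1 in neil2 MO and 444 in control MO of replicate 3, against 37.3 and 29.5 in neil2 MO and 52.2 and 38.1 in control MO of replicates 1 and 2. The RNA helicase gene dhx37.S, whose product acts in ribosome biogenesis, stood at 261 in neil2 MO and 125 in control MO of replicate 3, against 13.4 and 12.2 in neil2 MO and 14.7 and 21.3 in control MO of replicates 1 and 2. Neither gene had a replicate 3 library near the range of the others, and the log2 fold changes were 3.27 ± 0.27 and 3.62 ± 0.41.

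Other features with a symbol at the top were lrrc59.L (2.90 ± 0.42), a ribosome-binding protein of the endoplasmic reticulum, and akr1d1.S (2.41 ± 0.32), a reductase of steroid and bile acid metabolism. The tetraspanin gene tspan33.L had 612 and 823 in replicate 3, against 84.3 to 311 in replicates 1 and 2. It was also lower in neil2 MO over control MO embryos (-0.82 ± 0.25, adjusted p 0.0348 in DESeq2). Values of olfm4.L, a secreted olfactomedin, were 1768 and 2796 in replicate 3, against 113 to 814 in replicates 1 and 2 (log2 fold change 2.76 ± 0.93). Separate sets were a condition for naming these top features, and for olfm4.L the 4 libraries of replicates 1 and 2 spread widely. This gene was past the thresholds in only 2 of the 6 fits that left out a library. The list of the 10 highest was completed by epb41l3.S (2.35 ± 0.58), a linker of the membrane skeleton, the DnaJ co-chaperone gene dnajb5-like.L (2.13 ± 0.42) and the ferlin gene fer1l6.S (1.89 ± 0.73). The last of these rested on a range in which control MO replicate 1, at 154, stood apart from 37.0 to 45.7 in the other 3. For epb41l3.S the values were 661 and 1386 in replicate 3, against 64.1 to 570 in replicates 1 and 2. This gene was also lower in neil2 MO over control MO embryos (-1.82 ± 0.55, adjusted p 0.0305 in DESeq2).

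At the low end 1 feature was at 0 in replicate 3. LOC496737.L had no read in either replicate 3 library, and 489 and 635 reads in neil2 MO and 684 and 241 in control MO of replicates 1 and 2. Against a floor of 3 counts per library it was at least 146-fold lower in replicate 3. The S homeolog of oxct1, an enzyme that lets tissues use ketone bodies, had 1 read in neil2 MO and 0 in control MO of replicate 3, against 130 and 104 in neil2 MO and 105 and 87 in control MO of replicates 1 and 2. The summed counts put replicates 1 and 2 210-fold higher (95% interval 37.5 to 8321, counting error only). In the other direction Xelaev18039324m, a gene model with no symbol, had 156 and 88 reads in replicate 3 and a single read in the other 4 libraries together, a ratio of 495 (interval 87.9 to 19611).

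Further features were near the floor or low in both replicate 3 libraries. The gene parp4.L, for a PARP family member of the vault particle, had 0 in neil2 MO and 5.95 in control MO of replicate 3, against 348 and 333 in neil2 MO and 209.5 and 462 in control MO of replicates 1 and 2. The proton pump gene atp12a-like.L.L had 2.18 and 23.8 in replicate 3, against 98.5 to 794 in replicates 1 and 2, and npffr2.L, a neuropeptide receptor gene, had 10.2 and 8.93 in replicate 3, against 70.8 to 573 in replicates 1 and 2. For all 3 separate sets were a condition for being named, and among replicates 1 and 2 the values of the last 2 spread over several fold. The cytosolic nucleotidase gene nt5c1a.S had 121 and 22.3 in replicate 3, against 723 to 958 in replicates 1 and 2, and the unconventional myosin gene myo3a.L had 15.3 and 16.4 in replicate 3, against 75.1 to 217 in replicates 1 and 2, with log2 fold changes of -3.77 ± 0.60 and -3.42 ± 0.43.

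**Figure D1:**
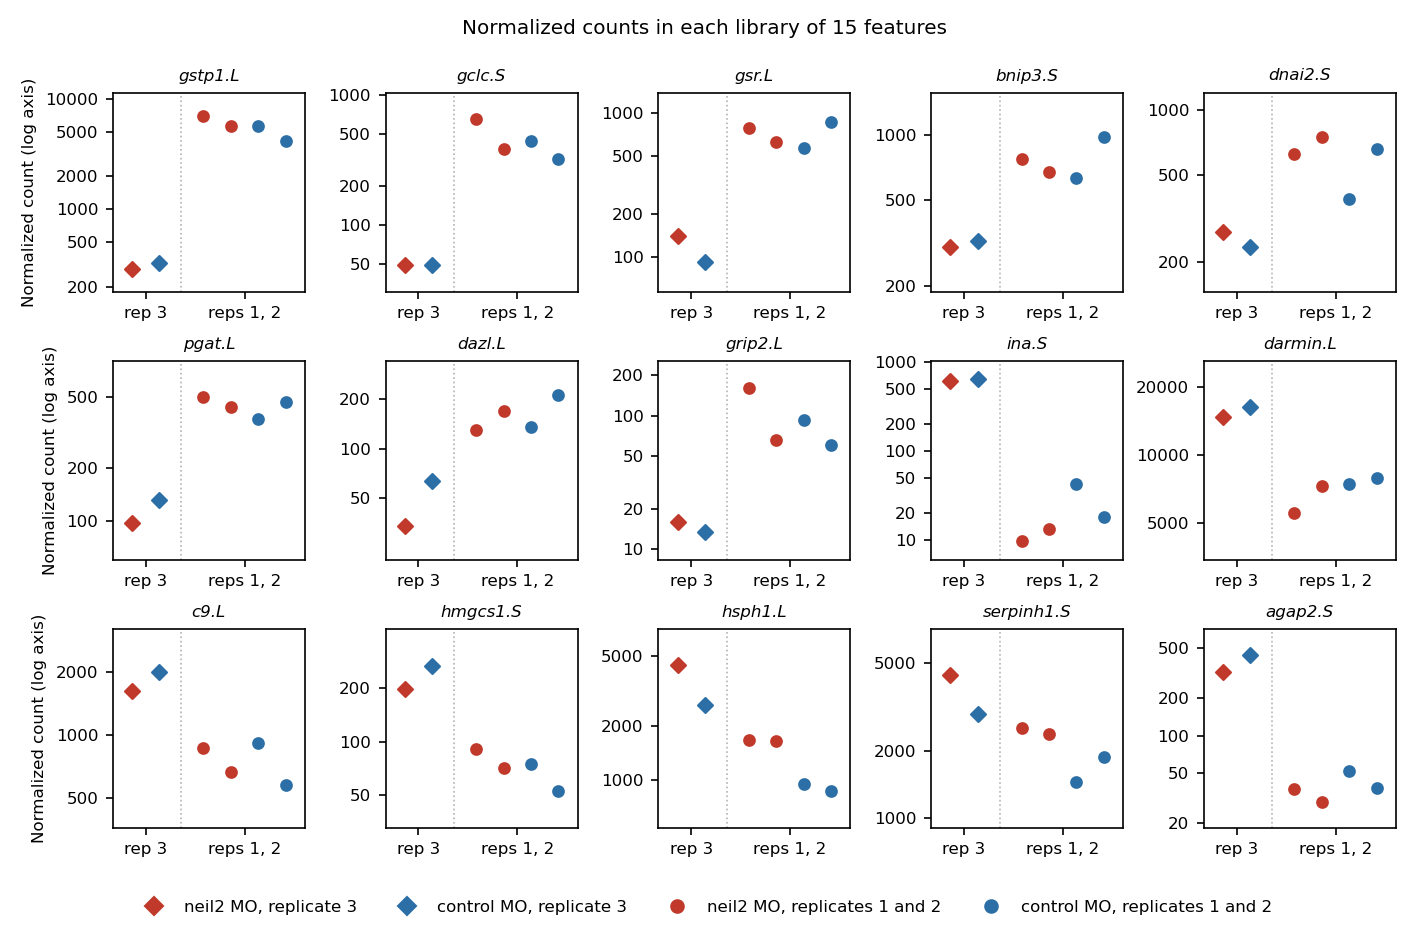
Normalized counts (log axis, scale set per panel) of 15 features in each of the 6 libraries, with diamonds for replicate 3 and circles for replicates 1 and 2, neil2 MO in red and control MO in blue. In each panel both diamonds lie on 1 side of the 4 circles: below for gstp1.L (288 and 323, against 4117 to 7014), above for ina.S (615 and 641, against 9.56 to 42.4). For gstp1.L, ina.S and agap2.S, separate sets were a condition for being named.

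Of the glutathione and detoxification genes, 16 were lower and 1 was higher in replicate 3. Glutathione is the main small antioxidant of the cell. It is made by glutamate-cysteine ligase and glutathione synthetase, kept reduced by glutathione reductase, and joined to electrophiles by glutathione transferases, and in mammals many of these genes are induced together by the transcription factor Nrf2. Of 69 features of the list 61 were tested, so that 26.2% were lower and 1.64% higher, against 5.85% and 3.43% of all features. This list and the others below were chosen with earlier results of these data known, so their shares are a description only. The median log2 fold change of the list was -0.43, and that of all features was -0.01.

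The largest difference in the list was that of gstp1.L, a glutathione transferase, with normalized counts of 288 in neil2 MO and 323 in control MO of replicate 3, against 7014 and 5600.2 in neil2 MO and 5632 and 4117 in control MO of replicates 1 and 2. Replicate 3 was 18.2-fold lower (-4.19 ± 0.19 on the log2 scale), and within each set the Morpholino groups were close. The catalytic subunit of the ligase, gclc.S, had 49.5 in neil2 MO and 49.1 in control MO of replicate 3, against 649 and 388 in neil2 MO and 442 and 321 in control MO of replicates 1 and 2. Glutathione reductase, gsr.L, had 140.4 in neil2 MO and 92.3 in control MO of replicate 3, against 780.5 and 632 in neil2 MO and 573 and 857 in control MO of replicates 1 and 2. In both genes the lowest library of replicates 1 and 2 was several times the highest of replicate 3, and the log2 fold changes were -3.20 ± 0.28 and -2.60 ± 0.23.

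The other lowered members, singled out after their values were seen, are given by step. For synthesis they were gclc.L (-0.99 ± 0.19), the modifier subunit gclm.L (-0.67 ± 0.23) and the synthetase gss.L (-0.54 ± 0.17). Among peroxide-reducing enzymes, prdx1.L had 102 and 86.3 in replicate 3, against 334 to 875 in replicates 1 and 2, and gpx1.L had 215 and 269 in replicate 3, against 796 to 947 in replicates 1 and 2. Thioredoxin, txn.L, had 149.8 and 214 in replicate 3, against 380.0 to 889 in replicates 1 and 2, and its reductase txnrd3.L had 2718 and 2843 in replicate 3, against 4046 to 4623 in replicates 1 and 2. All 4 were below the range of replicates 1 and 2. The quinone reductase nqo1.L had 548 and 577 in replicate 3, against 811 to 1381 in replicates 1 and 2, and the transferases mgst2.L, gsta1.S and gsto1.S had log2 fold changes of -1.29, -1.16 and -0.62. The peroxidase gpx3.S was at -0.70 ± 0.19. The transferase mgst1.L had 124 in neil2 MO and 210 in control MO of replicate 3, against 173 and 204 in neil2 MO and 430 and 260 in control MO of replicates 1 and 2, so the sets overlapped (-0.66 ± 0.25). It was also lower in neil2 MO over control MO embryos (-0.84 ± 0.23, adjusted p 0.0145 in DESeq2).

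Some related genes did not follow. The glucuronosyltransferase ugt1a1.L was the 1 higher member, with 1670.1 and 1651 in replicate 3, against 931 to 1148 in replicates 1 and 2. The partner prdx1.S had 992 and 878 in replicate 3, against 775 to 1499 in replicates 1 and 2, overlapping, and superoxide dismutase sod1.L had 1225 and 1567 in replicate 3, against 1055 to 1374 in replicates 1 and 2. The less abundant copy sod1.S had 171 and 235 in replicate 3, against 266 to 333 in replicates 1 and 2, below the other libraries in both (-0.54 ± 0.21) but not past the thresholds. Heme oxygenase, hmox1.L, was below in both replicate 3 libraries (1482 and 1743 in replicate 3, against 1895 to 2057 in replicates 1 and 2) but short of the threshold of size. Outside the list, the 10 lowest features with a symbol held 3 more genes of redox metabolism, named as such after their values were seen. The NADPH-sensing protein gene nmral1.S had 74.9 in neil2 MO and 144 in control MO of replicate 3, against 2069 and 1266 in neil2 MO and 1909 and 843 in control MO of replicates 1 and 2, pirin, pir.L, had 46.6 and 59.5 in replicate 3, against 426 to 1468 in replicates 1 and 2, and chac1.L, which degrades glutathione, was below the other libraries in both of replicate 3. Their log2 fold changes were -3.82 ± 0.58, -4.02 ± 0.59 and -3.54 ± 0.46. Of these, chac1.L was also lower in neil2 MO over control MO embryos (-1.30 ± 0.39, adjusted p 0.0267 in DESeq2). The median of the list was -0.31 within neil2 MO and -0.37 within control MO embryos. Without neil2 MO replicate 3, 7 members were lower, and without control MO replicate 3, 10 were.

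Of the hypoxia and glycolysis genes, a part was lower and none was higher. Prolyl hydroxylases of the Egln family mark Hif1a for destruction when oxygen is present, and Hif1a in turn drives glycolytic enzymes and Bnip3, a receptor for mitophagy. Of 59 members tested 17 (28.8%) were lower and 0 were higher, with a median of -0.29. Of all features 5.85% were lower and 3.43% higher, with a median of -0.01. The mitophagy gene bnip3.S had 302 in neil2 MO and 324 in control MO of replicate 3, against 768 and 674 in neil2 MO and 629 and 972 in control MO of replicates 1 and 2, and its log2 fold change was -1.28 ± 0.20. The hydroxylase egln3.S had 89.5 and 47.6 in replicate 3, against 158 to 238 in replicates 1 and 2 (-1.54 ± 0.28), and lactate dehydrogenase ldha.S had 369.5 and 518 in replicate 3, against 577 to 1661 in replicates 1 and 2 (-1.19 ± 0.23). In all 3 the replicate 3 libraries lay below the rest. In neil2 MO over control MO embryos ldha.S was lower too (-0.74 ± 0.21, adjusted p 0.0222 in DESeq2). Both homeologs were lower for bnip3, ldha, egln2 and p4ha1, and hif1a.S had 830.0 and 709.9 in replicate 3, against 1039 to 1244 in replicates 1 and 2. The median was -0.18 within neil2 MO and -0.47 within control MO. The count of lower members was 5 without neil2 MO replicate 3, 2 without control MO replicate 3, and 9 without neil2 MO replicate 1 or without control MO replicate 2.

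Genes of epidermal cell types made up a further group. Multiciliated cells of the tadpole skin move fluid with motile cilia. Of 52 tested features for their axoneme and basal bodies 17 (32.7%) were lower and 0 were higher (median -0.47, 48 of 52 negative). Of all 24024 features 5.85% were lower and 3.43% higher, and 12309 were negative. The dynein intermediate chain gene dnai2.S had 274 in neil2 MO and 234 in control MO of replicate 3, against 629 and 747 in neil2 MO and 388 and 657 in control MO of replicates 1 and 2, which gave -1.25 ± 0.23 on the log2 scale. The central apparatus gene spag6.L had 388 and 257 in replicate 3, against 495 to 758 in replicates 1 and 2 (-0.96 ± 0.19), and pifo.S had 40.0 and 28.3 in replicate 3, against 61.7 to 125 in replicates 1 and 2 (-1.26 ± 0.38). Tektins, filaments of the axonemal doublet, were lower in tekt1.L (-0.93), tekt1.S (-0.66), tekt2.S (-0.51), tekt3.L (-0.80) and tekt3.S (-0.92). The transcription factor foxj1, which switches on these genes, was not past the thresholds in either homeolog.

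Ionocytes acidify and exchange ions across the same epithelium. Of 34 tested features for ionocytes and secretory epidermis 11 (32.4%) were lower and 0 were higher (median -0.38), against 5.85% and 3.43% of all features. The anion exchanger pendrin, slc26a4.L, had 1469 in neil2 MO and 1159 in control MO of replicate 3, against 2890.5 and 2805 in neil2 MO and 1482 and 2308 in control MO of replicates 1 and 2. The lowest of the other 4, control MO replicate 1 at 1482, was only just above replicate 3, so the separation was narrow (-0.83 ± 0.18). Carbonic anhydrase ca12.L had 507 and 475 in replicate 3, against 612 to 1151 in replicates 1 and 2 (-0.86 ± 0.21), and foxi1.L, the transcription factor that specifies the cell type, had 474 and 475 in replicate 3, against 477 to 941 in replicates 1 and 2 (-0.63 ± 0.22). Subunits of the vacuolar proton pump were lower in atp6v1c2.L, atp6v1c2.S, atp6v0d2.L, atp6v1b2.S and atp6v1b1.L. For atp6v1c2.L, atp6v1c2.S and atp6v1b1.L the sets overlapped, with neil2 MO replicate 3 above control MO replicate 1. The partner foxi1.S and both homeologs of the pump subunit atp6v1a were not past the thresholds. Of 19 epidermal keratins 2 (10.5%) were lower, krt8.2.S (-1.46 ± 0.19) and krt16.S (-0.84 ± 0.22). The summed count of the multiciliated list was 23356 in neil2 MO and 17656 in control MO of replicate 3, against 31936 and 33283 in neil2 MO and 21358 and 26846 in control MO of replicates 1 and 2, so each replicate 3 library was below its own group while the sets overlapped. Leaving out neil2 MO replicate 3 left 2 multiciliated and 0 ionocyte members, and leaving out control MO replicate 3 left 4 and 5. For ionocytes 7 remained without neil2 MO replicate 2 and 7 without control MO replicate 2.

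**Figure D2:**
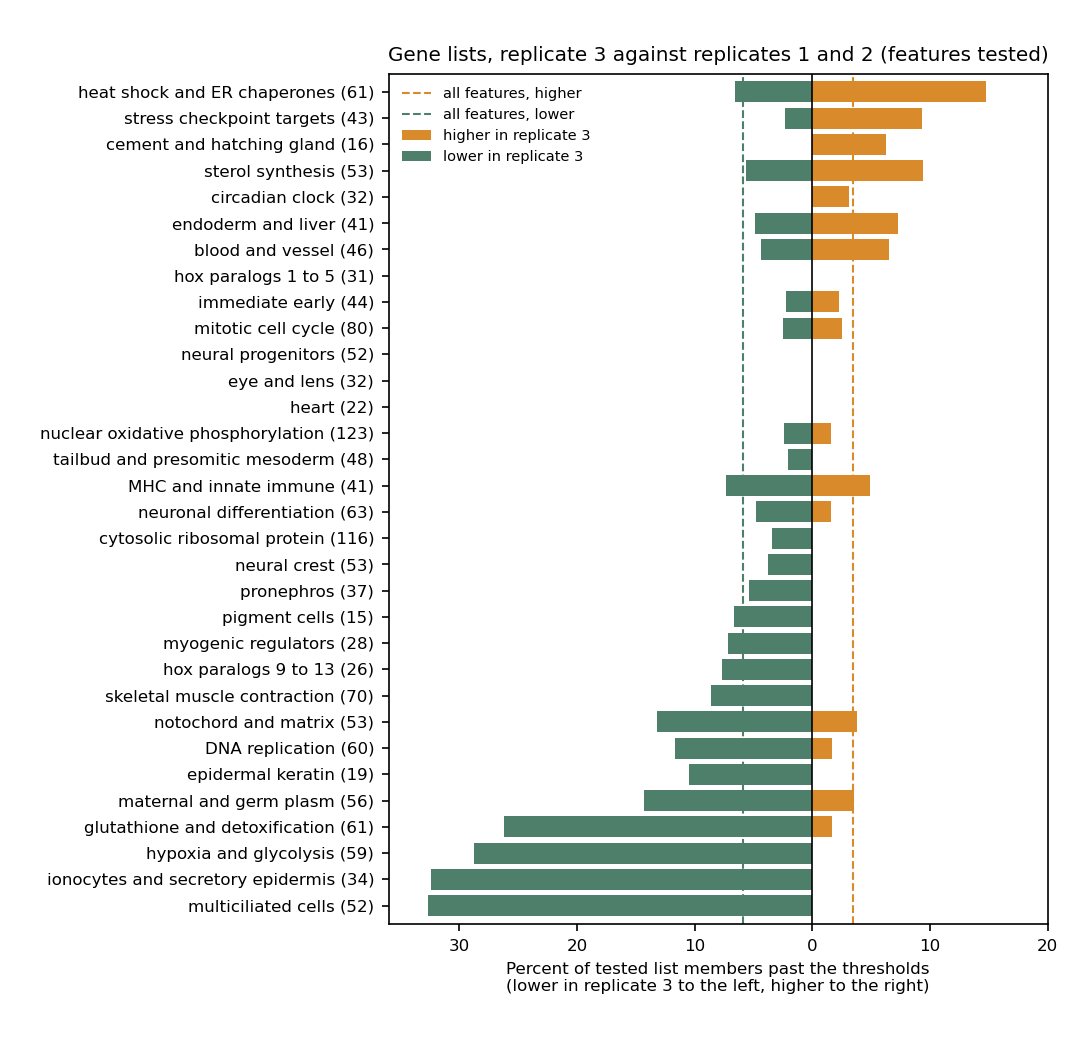
Percent of tested members of 32 gene lists that were lower (left) or higher (right) in replicate 3 past the thresholds, with the number of features tested in brackets and dashed lines for all features (5.85% lower, 3.43% higher). Multiciliated cells (32.7%), ionocytes (32.4%), hypoxia and glycolysis (28.8%) and glutathione and detoxification (26.2%) extend furthest to the left, and heat shock and ER chaperones (14.8%) furthest to the right. The lists were chosen with earlier results of these data known.

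Chaperones went the other way. Hsp110, Hsp90 and their co-chaperones fold cytosolic proteins, and Serpinh1 assists collagen in the endoplasmic reticulum (ER). Of 61 tested features for heat shock and ER chaperones 9 (14.8%) were higher and 4 (6.56%) were lower (median 0.18). Of all features 3.43% were higher and 5.85% lower, so the share of lower chaperones was near that of all features. The Hsp110 gene hsph1.L had 4404 in neil2 MO and 2642 in control MO of replicate 3, against 1676 and 1658 in neil2 MO and 946 and 858 in control MO of replicates 1 and 2, a difference of 1.47 ± 0.14 on the log2 scale. Its partner hsph1.S had 4399 in neil2 MO and 3159.6 in control MO of replicate 3, against 2767 and 1597 in neil2 MO and 1251 and 1162 in control MO of replicates 1 and 2 (1.20 ± 0.20). Both homeologs were highest in neil2 MO replicate 3 and lowest in control MO of replicates 1 and 2. The collagen chaperone serpinh1.S had 4424 and 2948 in replicate 3, against 1450.3 to 2536 in replicates 1 and 2 (0.84 ± 0.15). Also higher were hsp90aa1.1.L (0.84 ± 0.17), the Hsp90 activator ahsa1.L (0.80 ± 0.23), dnajb1.L (0.56 ± 0.22) and stip1.S (0.54 ± 0.16). In each of these the sets overlapped, since control MO replicate 3 lay within the range of replicates 1 and 2. The 4 lower members were ER proteins: pdia4.L (-0.65 ± 0.18), dnajc3.L (-0.53 ± 0.18), creld2.L and creld2.S. Without neil2 MO replicate 3, or without control MO replicate 3, 3 members were higher, and without control MO replicate 2, 6 were.

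Chaperones also differed between the Morpholino groups. The contrast of neil2 MO over control MO used the same 6 libraries with the replicate 3 set as a term, and was tested with DESeq2. That term was chosen from these libraries, so its calls depend on the choice. In it 13 of 60 chaperone features were higher, against 2.56% of 21878 features. Of the 9 chaperone features higher in replicate 3, 8 were among these. For hsp90aa1.1.L the log2 difference was 1.57 ± 0.16 (adjusted p 6.57e-19, higher in 3 of 3 neil2 MO libraries), with normalized counts of 2868 in neil2 MO and 1000.1 in control MO of replicate 3, against 1909 and 1386 in neil2 MO and 510.3 and 578 in control MO of replicates 1 and 2. For hsph1.L it was 0.83 ± 0.13 (adjusted p 2.14e-07). Each gene thus had its own difference between replicate 3 and the other libraries, and its own difference between neil2 MO and control MO. Multiciliated features had 19 of 51 higher with the neil2 MO, such as cfap52.S, with 1.11 ± 0.23 (adjusted p 0.000146), where replicate 3 was lower (-0.72 ± 0.24). In glutathione and detoxification 4 of 58 were lower with the neil2 MO, against 2.05% of all features.

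Several RNAs of the germ plasm were lower in replicate 3. These RNAs are laid down in the egg and are inherited by the primordial germ cells. Of 56 tested maternal and germ plasm features 8 (14.3%) were lower and 2 (3.57%) were higher, with a median of -0.17. Of all features 5.85% were lower and 3.43% higher, so the share of higher members was near that of all features. The germ plasm RNA pgat.L had 97.5 in neil2 MO and 132 in control MO of replicate 3, against 495 and 439.9 in neil2 MO and 377 and 469 in control MO of replicates 1 and 2, a log2 fold change of -1.97 ± 0.23. The RNA-binding translational regulator dazl.L had 34.2 in neil2 MO and 64.0 in control MO of replicate 3, against 129 and 169.7 in neil2 MO and 135 and 211 in control MO of replicates 1 and 2 (-1.77 ± 0.32). Values of grip2.L, whose product is needed for germ cell migration in Xenopus, were 16.0 in neil2 MO and 13.4 in control MO of replicate 3, against 159.7 and 66.0 in neil2 MO and 92.9 and 60.6 in control MO of replicates 1 and 2 (-2.69 ± 0.48). In these 3 genes neither replicate 3 library reached the other 4. Also lower were velo1.L, tdrd1.L (-1.19 ± 0.31) and the helicase gene ddx25.L (-0.99 ± 0.26). The oocyte kinase gene mos.L, by contrast, was higher, with 177 and 169.7 in replicate 3, against 74.6 to 104 in replicates 1 and 2 (0.94 ± 0.27). Without neil2 MO replicate 3, 2 members were lower, and without control MO replicate 3, 3 were.

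In the endoderm and liver list 3 of 41 members (7.32%) were higher and 2 (4.88%) lower, against 3.43% and 5.85% of all features. The secreted peptidase gene darmin.L, an abundant endodermal transcript of Xenopus, had 14669 in neil2 MO and 16218 in control MO of replicate 3, against 5510.2 and 7281 in neil2 MO and 7457 and 7939.9 in control MO of replicates 1 and 2. Replicate 3 was 2.20-fold higher (1.14 ± 0.15), and the partner darmin.S was higher too (3.41 ± 0.57) at a far lower level. The complement gene c9.L had 1621 and 2015 in replicate 3, against 575 to 919 in replicates 1 and 2 (1.26 ± 0.20). Complement factor B, cfb.L, had 1104 and 853 in replicate 3, against 1900.0 to 2545 in replicates 1 and 2 and was lower (-1.11 ± 0.15), so these complement genes differed in opposite directions. The sterol synthesis gene hmgcs1.S, whose product makes HMG-CoA, had 197 and 268 in replicate 3, against 52.7 to 90.9 in replicates 1 and 2 (1.68 ± 0.29). Of 53 sterol and lipid synthesis features 5 (9.43%) were higher and 3 (5.66%) lower.

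Lists for tissues that form along the axis during these stages had few members past the thresholds, except notochord and matrix. That list had 7 of 53 features (13.2%) lower and 2 (3.77%) higher. In the other lists the shares of lower members lay on both sides of the 5.85% of all features. Among all features 3.43% were higher. Of 70 skeletal muscle contraction features 6 (8.57%) were lower and 0 higher (median -0.18), among them the calcium channel gene cacna1s.S (-0.82 ± 0.21). In 28 myogenic regulators 2 (7.14%) were lower, six4.S (-0.98 ± 0.25) and meox2.L (-0.74 ± 0.25). In 48 tailbud and presomitic mesoderm features only msgn1.S (-0.81 ± 0.23) was lower, a share of 2.08%. For the lists of heart (22 tested), eye and lens (32), neural progenitors (52) and hox paralogs 1 to 5 (31), 0 members were past the thresholds in either direction. In lists of this size a count of 0 does not show that a tissue was unchanged. Most members of some of these lists were nonetheless negative, with 54 of 70 for skeletal muscle contraction, 25 of 31 for hox paralogs 1 to 5 (median -0.23), 21 of 26 for hox paralogs 9 to 13 (median -0.22) and 44 of 63 for neuronal differentiation (median -0.23), while in heart 8 of 22 were. Of all 24024 features 12309 were negative. Among hox paralogs 9 to 13 2 of 26 (7.69%) were lower, hoxb9.L (45.1 and 59.5 in replicate 3, against 85.1 to 129 in replicates 1 and 2) and hoxa10.S (-0.59 ± 0.22 on the log2 scale). Neural crest had 2 of 53 (3.77%) lower and 0 higher. In neuronal differentiation ina.S was the 1 higher member of 63, and nefm.L (-1.75 ± 0.40), also an intermediate filament gene, was among 3 lower ones.

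Proliferation and housekeeping lists gave the following, where 3.43% of all features were higher and 5.85% lower. Of 60 DNA replication features 7 (11.7%) were lower and 1 was higher, with pola1.S (-0.68 ± 0.19) and prim2.S (-0.58 ± 0.21) of the primase complex among the lower and the origin recognition gene orc5.L (0.95 ± 0.26) the higher. In 80 mitotic features 2 were higher and 2 lower. Ribosomal protein genes had 4 of 116 (3.45%) past the lower threshold and a median of -0.23, with 109 of 116 negative and 49 of 116 below all 4 other libraries in both replicate 3 libraries, where 14.7% of all features were. Their summed count was 495309 in neil2 MO and 482173 in control MO of replicate 3, against 511796 to 606806 in replicates 1 and 2. Oxidative phosphorylation had 2 higher and 3 lower of 123 (median -0.03). In the notochord and matrix list, the collagen prolyl hydroxylase p4ha2.L had 877 and 452 in replicate 3, against 1151 to 2364 in replicates 1 and 2 (-1.26 ± 0.19), the largest lowered value among members with a mean of at least 50. It was higher in neil2 MO over control MO embryos (0.81 ± 0.18, adjusted p 0.000423 in DESeq2).

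**Figure D3:**
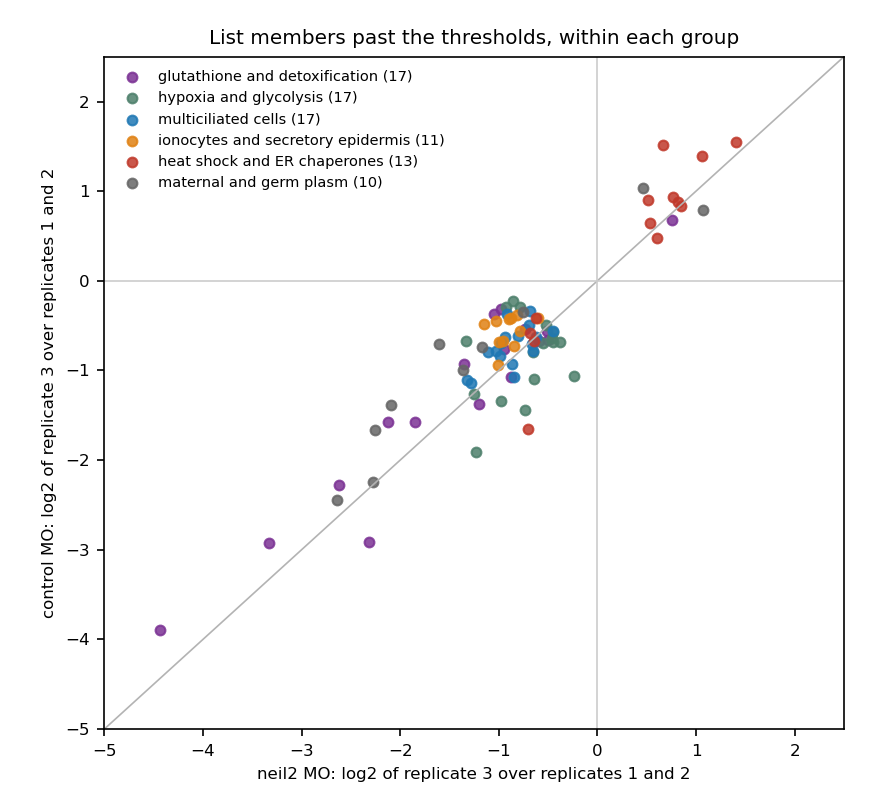
For the members of 6 lists past the thresholds, the log2 ratio of replicate 3 over the mean of replicates 1 and 2 within neil2 MO (horizontal) and within control MO (vertical), with the diagonal for equal values and the number of members in brackets. Points keep their sign in both groups, down to -4.44 and -3.90 for gstp1.L. The thresholds used both groups together and so favour members with equal signs, and agreement of the groups was not tested.

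The homeologs of features past the thresholds were set beside them. Among features past the thresholds 1237 had a partner homeolog with a mean of at least 10 normalized counts, and 998 partners (80.7%) differed in the same direction. In 262 cases (21.2%) the partner was past the thresholds too in the same direction, and in 12 in the opposite one, where 3.43% of all features were higher and 5.85% lower. A pair with both copies past the thresholds was counted from each copy. The share of equal signs over all homeolog pairs is not given, so the 80.7% cannot be set against it. Of 322 features with more than a 2-fold difference, 173 (53.7%) had a partner that differed by less than 0.5 on the log2 scale. Reads that match both homeologs equally were not counted, so values of near-identical copies are uncertain.

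The 5 pairs whose copies differed most show this. While nt5c1a.S had a log2 fold change of -3.77, nt5c1a.L was at -0.11 ± 0.14, and the summed count of both in replicate 3 was 74.4% of that in replicates 1 and 2. For dhx37.S and dhx37.L the sum was 133%, since dhx37.L, at 1479 and 2032 in replicate 3, against 1215 to 1602 in replicates 1 and 2, was the abundant copy. For lrrc59 the abundant copy lrrc59.S (-0.32 ± 0.16) went slightly the other way and the sum was 83.8%. In oxct1 both copies were lower, oxct1.L by less (-0.86 ± 0.22), and the sum was 42.2%. In agap2 the copy agap2.L did not follow (-0.07 ± 0.31), but agap2.S was the larger part in replicate 3 and the sum was 336%.

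**Figure D4:**
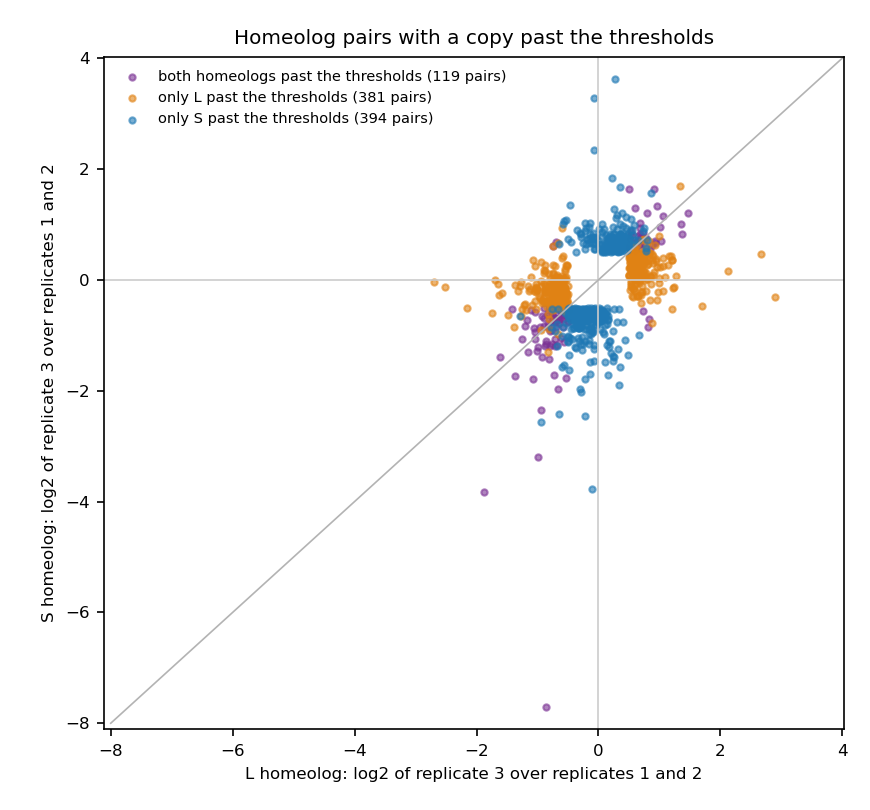
Log2 ratio of replicate 3 over replicates 1 and 2 for the L (horizontal) and S (vertical) copy of 894 homeolog pairs with a mean of at least 50 in both copies and at least 1 copy past the thresholds. In 119 pairs both copies were past them, in 381 only L and in 394 only S, and points near an axis, such as dhx37 (0.27, 3.62), are pairs in which 1 copy differed.

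The response to the neil2 MO was the question that the split did not use. The set term in its model was nonetheless chosen from these same libraries, so the counts and adjusted p-values depend on that choice. With the set as a term, DESeq2 called 560 features higher (2.56%) and 448 lower (2.05%) in neil2 MO over control MO embryos at the same thresholds, 4.61% in all. Without the term the counts were 276 and 261, and replicates 1 and 2 alone gave 175 and 191. Without neil2 MO replicate 3 there were 147 and 156, and without control MO replicate 3 168 and 166. Without neil2 MO replicate 1 there were 295 and 236, and without control MO replicate 1 299 and 200.

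Whether the response itself differed in replicate 3 was tested with the interaction of group and set, with 2 residual degrees of freedom. Replicate 3 holds 1 library of each group, so few calls cannot show that its response was the same. DESeq2 called 1 of 36902 features (0.00271%), col5a3-like.L, a collagen gene, and 224 had an unadjusted p below 0.05. Its normalized counts were 3212 in neil2 MO and 1304 in control MO of replicate 3, against 3046 and 2524 in neil2 MO and 3955 and 3209 in control MO of replicates 1 and 2. The low value was that of control MO replicate 3. The response was 1.30 in replicate 3 and -0.36 in replicates 1 and 2 on the log2 scale, a difference of 1.66 ± 0.34 (adjusted p 0.0513). The quasi-likelihood test of edgeR called 0 features of 25635, with 561 at an unadjusted p below 0.05, and gave this gene an adjusted p of 1.00. With the replicate number as a block DESeq2 called 9 higher and 10 lower.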

How the data were processed

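The authors deposited raw counts, 1 table per library, with no scaling for depth. Per the labels and the methods of the study, the authors made TruSeq libraries from polyadenylated RNA with 12 PCR cycles, sequenced them as 1 pool, aligned the reads with STAR (2.5.4b) to the X. laevis v9.2 genome and counted them with featureCounts (1.5.1), so reads that match several places were left out. Of 44958 features 36902 had a read. Total counts per library are in the report, where 3 counts, the floor, equal 0.125 to 0.260 CPM, which covers counting error only.

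Replicate 3 was compared with replicates 1 and 2 by a Wald test in DESeq2 1.42.0 (R 4.3.3) with Morpholino group and set as terms, independent filtering, an adjusted p below 0.1 and a log2 fold change beyond 0.5 in either direction. Because the split came from these libraries, its p-values served only as thresholds. The set term left 3 residual degrees of freedom. Normalized counts are counts divided by DESeq2 size factors. The neil2 MO contrast and the interaction used the same test. Members, gene lists (32) and tests were chosen with earlier results of these data known. The features named are the 10 highest and 10 lowest with a symbol and 3 each without one, among those past both thresholds with a mean of at least 50 and separate sets, up to 3 per list and direction, near-absent features, and the 5 homeolog pairs that differ most. Further list members, partner copies and genes outside this rule were chosen after their values were seen.

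Groups and replicate numbers came from the titles. Deviations from group means correlated between libraries of equal number with r = 0.59, 0.57 and 0.63 for replicates 1, 2 and 3 over 23651 features. This correlation was not computed for libraries of unequal number, and replicate 3 stood apart in both groups. The r values alone therefore cannot show that the numbers pair the libraries. No pair of libraries agreed within sampling noise (chi-square per degree of freedom 14.3 to 39.0). Between the groups, each neil2 MO library had its lowest chi-square with the control MO library of its own number. For replicate 1 it was 18.4, against 22.6 and 29.7 with the other control MO libraries. For replicate 2 it was 14.3 (against 27.9 and 23.9), and for replicate 3 15.9 (against 39.0 and 33.9). Control MO replicates 1 and 2 had 14.9 with each other. The labels name no shared source, and pairing by number was not tested. Nothing in the labels states that pools came from separate clutches, so p-values and SEs measure the spread between these pools. Alternatives were edgeR 4.0.16 with TMM factors, other normalization, filters and thresholds, no Morpholino block, a replicate block, summed homeologs, thinned counts and left-out libraries. Replicate 2 against replicate 1, and list counts in the neil2 MO contrast, were added after seeing the data. The fits were tested on simulated data first.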

Additional observations from a re-analysis of the deposited data

Results flagged for a closer look

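In 118 features named by the rules, the 4 libraries of replicates 1 and 2 were checked for a single library far from the other 3. There were 6 such cases, about the 1 in 20 that chance gives. For fer1l6.S control MO replicate 1 stood apart at 154 normalized counts, for npffr2.L control MO replicate 2 at 573, for cebpa.S neil2 MO replicate 2 at 339 and for nr1d1.L neil2 MO replicate 1 at 92.8. For myd88.S control MO replicate 2 was low at 107. For Xelaev18039324m control MO replicate 1 held the only read, 0.815 normalized counts.

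The response of col5a3-like.L to the neil2 MO differed between replicate 3 and replicates 1 and 2 by 1.66 on the log2 scale in the DESeq2 interaction test (adjusted p 0.0513), and edgeR did not call it.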

How the results depend on the processing

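Replicate 3 holds 2 libraries, so every difference from replicates 1 and 2 rests on both. Of 114 named features past the thresholds 102 were past them in edgeR and 34 with each of the 6 libraries left out in turn. No value reversed its sign. Of the log2 fold changes of named features under the alternatives 884 stayed within the spread between libraries and 62 did not, 60 of these without a replicate 3 library. The median of each of the 6 lists stayed within that spread. The cause of the changes was not tested, and low counts limit features near the floor of 3 reads.

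With a library left out, features higher in replicate 3 numbered 77 to 724 (825 with all) and lower ones 260 to 1237 (1406 with all). Members lower were 7 to 17 for glutathione and detoxification, 2 to 15 for hypoxia and glycolysis, 2 to 22 for multiciliated cells, 0 to 16 for ionocytes and 2 to 7 for maternal and germ plasm, and chaperones higher were 3 to 9. The lowest were without neil2 MO replicate 3, except for hypoxia and glycolysis (2 without control MO replicate 3) and chaperones (3 without either). Against replicate 1 alone there were 523 higher and 920 lower features, 4 ionocyte, 5 germ plasm and 4 chaperone members, and against replicate 2 alone 466, 829 and 9 hypoxia and glycolysis members. An absolute log2 fold change above 1 left 238 higher and 526 lower features, with 8 glutathione, 5 hypoxia, 2 multiciliated, 1 ionocyte and 3 chaperone members. Without the Morpholino block 11 hypoxia and 4 chaperone members were past the thresholds. Hypoxia members numbered 7 with homeologs summed and 11 at an adjusted p below 0.05.

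For the neil2 MO contrast the replicate block gave 694 higher and 604 lower features, leaving out 1 library 147 to 469 and 156 to 383, no set term 276 and 261, and replicates 1 and 2 alone 175 and 191. For the interaction the replicate block gave 9 and 10, edgeR 0, and leaving out a library of replicates 1 and 2 0 in both directions. A fit of the interaction without a replicate 3 library could not be made.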

Other observations

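Gene lists not described above held few members past the thresholds in replicate 3. In blood and vessel 3 of 46 tested features (6.52%) were higher and 2 (4.35%) lower, against 3.43% and 5.85% of all features. Both copies of cebpa, a transcription factor of myeloid cells, were higher, with log2 fold changes of 0.62 ± 0.17 for cebpa.L and 0.66 ± 0.19 for cebpa.S, and the endothelial receptor gene tek.S was lower (-0.94 ± 0.29). Of 37 pronephros features 2 (5.41%) were lower, among them the sodium chloride cotransporter gene slc12a3.L (-0.92 ± 0.18), with 273 in neil2 MO and 268 in control MO of replicate 3, against 495 to 543 in replicates 1 and 2.

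In the circadian clock list nr1d1.L (0.83 ± 0.31) was the 1 member of 32 past the thresholds (3.12%), near the 3.43% of all features. A positive sign was seen in 25 of 32 members (median 0.28), against 11715 of 24024 features (median -0.01). Of 44 immediate early features 2.27% were higher and 2.27% lower, below the 3.43% and 5.85% of all features. These were egr1.L, higher (0.82 ± 0.31), and the growth factor gene ctgf.L, lower (-1.03 ± 0.20). With each of the 6 libraries left out in turn, nr1d1.L was past the thresholds in 1 fit, egr1.L in 0 and ctgf.L in 5. Stress checkpoint targets had 4 of 43 (9.30%) higher and 1 (2.33%) lower in replicate 3, against 3.43% and 5.85% of all features. In the same 6 libraries 11 of 41 were higher with the neil2 MO, against 2.56% of all features.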
